A study of Mus musculus with 5 samples.

Results

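The genes described here encode the enzymes that modify and conjugate foreign chemicals, together with the ATP-binding cassette (ABC) transporters that export them. They were chosen by symbol: cytochrome P450 genes of families Cyp1 to Cyp4, and the Ugt, Sult, Gst, Ces, Aldh, Adh, Fmo, Abcb, Abcc and Abcg genes. The choice took 269 genes out of 52382 in the table. They were followed in colon RNA from wild-type male C57BL/6 mice aged 8 to 12 weeks at the start of a colitis-associated cancer protocol. The protocol combines injections of the mutagen azoxymethane (AOM) with drinking water that holds dextran sulfate sodium (DSS), an agent that damages the lining of the colon. The labels give AOM at 8.5 mg per kg on days 1 and 8, and cycles of 1.5% DSS for 7 days followed by 14 days of water. W0 is an untreated control on distilled water, W2 is labelled as AOM, and W5, W8 and W11 are labelled as AOM and DSS, where the number is the week. In the labels W0 appears both as taken before treatment and as killed together with the treated mice, so its age relative to them is not known. All 5 libraries carry the wild-type genotype and the same batch label. There is 1 library per time point. From each group 3 mice were selected, and whether their RNA was pooled is not stated. No difference between time points has a replicate check, there is no p-value, and a gene is said to rise or fall where its fold reached 2.

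Enzymes of drug metabolism act in sequence on fat-soluble compounds. Cytochromes P450, flavin monooxygenases, dehydrogenases and carboxylesterases add or uncover a reactive group, and the sulfotransferases, UDP-glucuronosyltransferases and glutathione transferases then attach a water-soluble one. ABC transporters move the products and many parent compounds out of the cell. In the intestine many of these genes are expressed in mature absorptive epithelial cells, and several of them are also needed for retinoids, steroids, bile acids and the products of gut bacteria. AOM itself is activated by oxidation, a reaction for which Cyp2e1 is known.

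The libraries held between 13389184 (W8) and 20379429 (W5) counted reads, with 20111 to 21245 genes detected. Levels are given as CPM, counts per 1000000 counted reads, and folds as differences of log2(CPM + 1) against W0, a scale that understates the change of low genes. Both colon tissue and intestinal epithelial cells appear in the labels as the source. At W0 the smooth muscle gene Acta2 was at 1014 CPM, the B cell gene Cd79b at 35.1 CPM and the epithelial gene Epcam at 1824 CPM, so the RNA was not from epithelial cells alone.

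Of the 269 genes, 42 carry pseudogene or antisense symbols. A mean of at least 1 CPM over the 5 libraries was reached by 116 genes (43.1%), of which 3 are pseudogenes, and only these enter the counts below. Because the filter is on the mean, a gene that was high in a single library can pass through that library. A further 72 genes had counts below the filter, and 81 were listed at 0 in all 5 libraries. The gene just below the filter, Aldh3b3, had a mean of 0.992 CPM, and the lowest gene that passed had 1.17 CPM. Genes at 0 in all libraries made up 30.1% of these genes and 52.5% of all genes in the table.

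A value of 0 was not read as absence. Of the genes listed at 0, 52 are protein coding in GENCODE M21, and 28 of those share over 10% of their 50-base words with another gene, with a median of 14.8% against 2.56% in the genes that passed the filter. The mitochondrial transporter Abcb6 shared 66.8% with Gm29253 and the proline-pathway enzyme Aldh4a1 shared 35.5% with Gm21969, and both were listed at 0. The rest of the 52 share 10% or less, so shared sequence does not mark all the zeros. Among them, Gsto1 shares none of its 50-base words and Abcb10 shares 8.27%. Why these genes are at 0 was not tested. The 9 Ugt1a genes, which use common last exons, summed to between 0.0669 and 0.410 CPM, and 8 of them were at 0 throughout. Over 50% of the exon bases of 10 of the zero genes overlap another gene on the same strand, while none of the genes that passed the filter is overlapped to that extent. How the counting treated such reads is not given in the sources used here, so the glucuronosyltransferases of the Ugt1a locus cannot be described from this table.

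The genes that metabolise and export foreign compounds were lower in later libraries. At W8, 44 of the 116 fell and 7 rose, and at W11, 51 fell and 6 rose. Among all 14720 genes that passed the filter, 3.85% fell and 7.79% rose at W8, against 37.9% and 6.03% of the 116. At W11, 16.9% of all genes fell and 11.3% rose, against 44.0% and 5.17%. The median log2 fold of the 116 was -0.67 at W8 and -0.65 at W11, beside 0.11 and -0.15 over all genes. With folds taken relative to the median of all genes, 51 fell and 7 rose at W8, beside 752 and 963 of all 14720 genes. At W11, on the same centred folds, 44 fell and 7 rose, beside 1876 and 2077 of all genes. In bulk tissue, fewer cells of a type and less RNA per cell cannot be told apart.

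Earlier libraries differed less. At W2, 3 of the 116 fell and 1 rose, beside 4.23% and 3.41% of all genes. At W5, 13 fell (11.2%) and 7 rose (6.03%), beside 1.87% and 6.63% of all genes. The median log2 fold was -0.24 at W2 and -0.17 at W5, against -0.02 and 0.11 over all genes. On the deposited length-scaled values, with the same offset of 1, 8 fell and 2 rose at W5. On those values 6.90% of these genes and 0.815% of all genes fell.

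**Figure D1:**
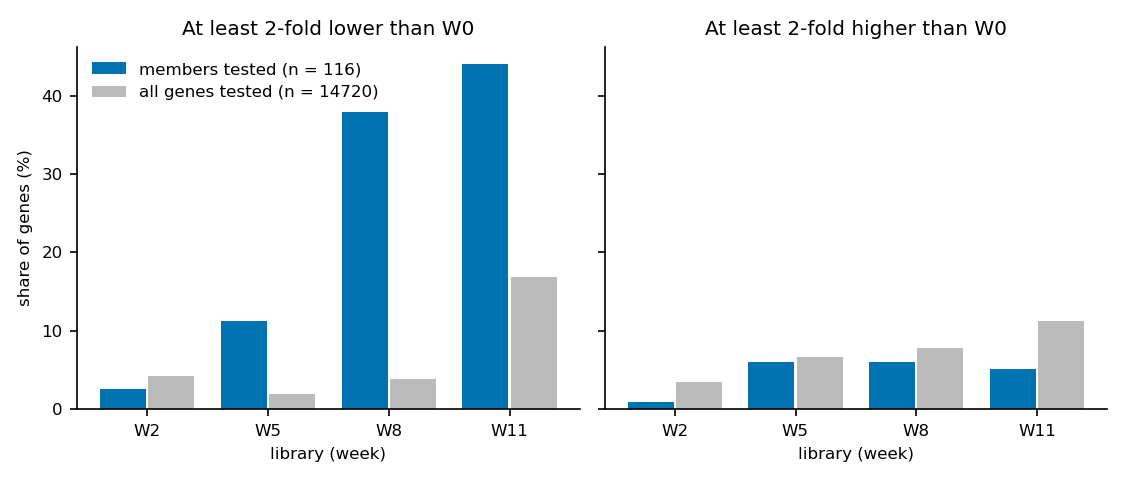
Percentage of genes at least 2-fold lower (left) or higher (right) than W0 in each later library. Bars are given for the 116 genes of xenobiotic metabolism and export and for all 14720 genes that passed the filter. The 2 lowered shares are furthest apart at W8, at 37.9% against 3.85%.

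Each library was also set against the one before it, and the step from W5 to W8 held the highest count of lowered genes. Going from W5 to W8, 20 of the 116 were at least 2-fold lower and 3 higher, beside 3.60% and 4.78% of all genes. From W2 to W5, 6 were lower and 11 higher, beside 4.46% and 9.44% of all genes. From W8 to W11, 4 were lower and 3 higher, beside 11.9% and 3.40% of all genes, so in that last step the share of lowered genes was under the background. In 21 of the 116 genes (18.1%, against 2.29% of all genes) each library was lower than the one before, and in 2, Adh6a and Gstm5, each was higher (1.72%, against 2.09%).

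At both W8 and W11, 40 of the 116 (34.5%) fell, where 3.07% of all genes did. The 4 that rose at both, 3.45% against 4.94% of all genes, were Abcc2, Aldh1a3, Cyp2b10 and Gstm5. At W5, W8 and W11 alike, 11 genes (9.48%, against 0.686% of all genes) fell: Abcb1a, Aldh1a7, Aldh2, Ces1f, Cyp2c55, Cyp2d12, Cyp2d22, Cyp2f2, Cyp2s1, Gstm1 and Sult1a1. They come from 6 of the families: Abcb, Aldh, Ces, Cyp2, Gst and Sult. Abcc2 and Aldh1a3 rose at all 3 times, 1.72% against 2.57% of all genes. These comparisons share the W0 library.

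Of 96 enzyme genes 41 fell and 5 rose at W8, and 44 fell and 5 rose at W11. Of 20 transporter genes 3 fell and 2 rose at W8, and 7 fell and 1 rose at W11. The median log2 fold of the enzymes was -0.82 at W8 and -0.67 at W11. For the transporters it was 0.03 at W8 and -0.63 at W11, so as a set they were not lower at W8. Among all genes 3.85% fell and 7.79% rose at W8, and 16.9% and 11.3% at W11. Those shares stand beside every family and list count below. The difference between enzymes and transporters was not tested. Summed over all 269 genes, the level was 7801, 6764, 5677, 4519 and 4065 CPM from W0 to W11. The sum was thus lower in each later library, and 1.92-fold lower at W11 than at W0. By family, the W0 sum was 5.62-fold the W11 sum for the flavin monooxygenases, 3.36-fold for the carboxylesterases and 2.65-fold for the P450 genes. The Gst sum, 971 CPM at W0 and 804 CPM at W11, and the pooled ABC sum, 841 and 471 CPM, differed less. Within the ABC genes, the W0 sum was 2.80-fold the W11 sum for Abcb, 1.36-fold for Abcc and 1.44-fold for Abcg.

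**Figure D2:**
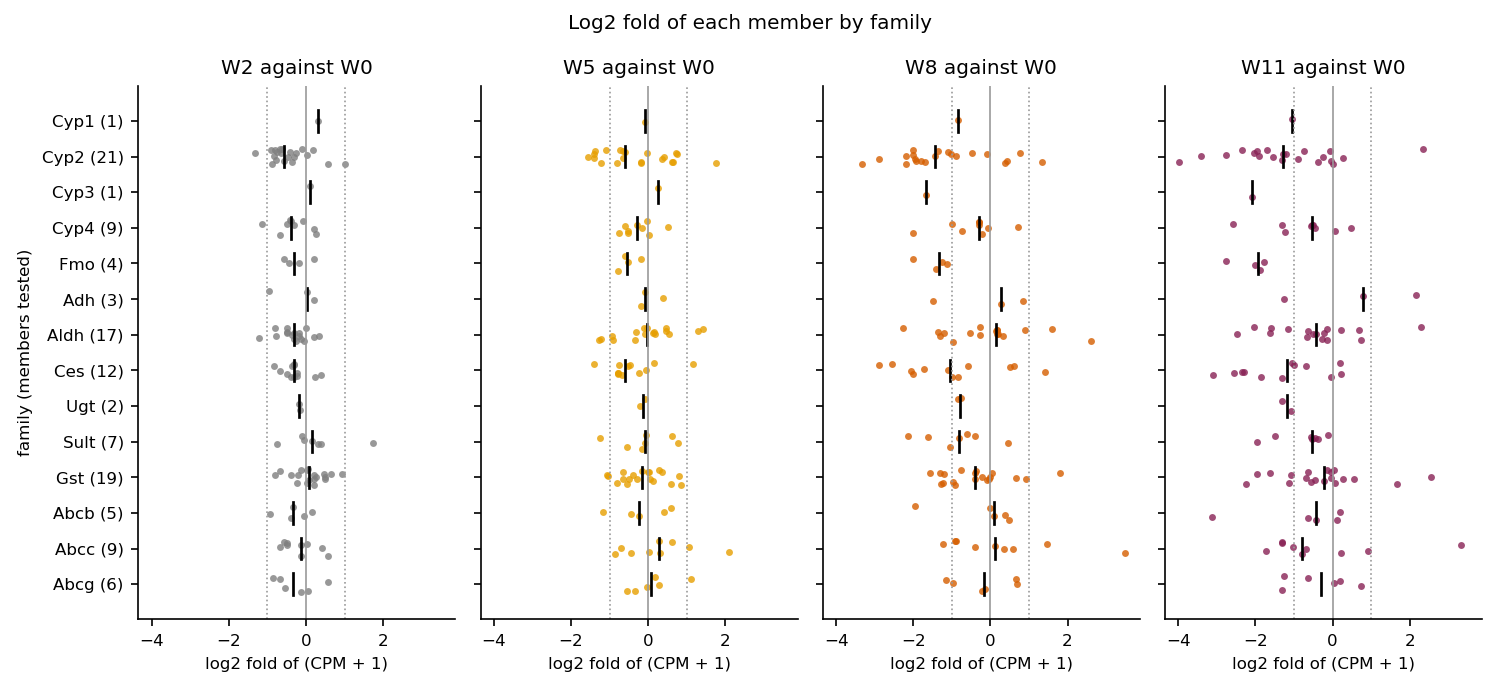
Log2 fold of (CPM + 1) against W0 at W2, W5, W8 and W11 for each gene that passed the filter, by family. A point is a gene, the black bar is the family's median and the dotted lines mark 2-fold. At W8 the medians of the Cyp2, Fmo and Ces families lay at -1.43, -1.33 and -1.05, while that of Aldh lay at 0.14.

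Per length, a few genes made up much of the total. On the deposited RPKM-like scale the highest levels at W0 were those of Aldh2 at 99.3, Aldh1b1 at 92.1, Sult1a1 at 63.4, Adh1 at 58.1 and Gstm1 at 57.2. These 5 genes held 37.8% of the summed RPKM-like level of the 269. At W11 Aldh2 was still the highest at 43.9, and Gstm5, at rank 34 at W0 with 6.88, stood at rank 2 with 40.9. Gsta4, a transferase for lipid peroxidation products, moved from rank 12 with 20.6 to rank 3 with 30.0 on the same scale. Cyp2c55 went from rank 8 with 26.6 to rank 48 with 2.25.

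Markers of absorptive colonocytes were lower in the same libraries. All 10 listed markers passed the filter, and the numbers that fell were 1, 2, 6 and 8 in the 4 later libraries. Their summed level was 3707, 3356, 2319, 1171 and 718 CPM from W0 to W11, and none was at 0. Of 10 general epithelial markers 9 passed, with Elf3 listed at 0. None of these fell at W2, W5 or W8 and 2 fell at W11, their sum lying between 25743 CPM at W0 and 17540 CPM at W11. Markers of goblet cells were lower too. All 8 passed, and 2, 4, 4 and 5 fell in the 4 later libraries, while 1 rose at W8 and 1 at W11. Their sum was 16027, 7978, 7212, 6662 and 4167 CPM from W0 to W11. The part of a changed cell makeup in the results below was not tested.

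Cytochromes P450, haem enzymes that oxidise their substrates, were represented by 32 genes that passed. Of these 17 fell and 1 rose at W8, and the same numbers fell and rose at W11. Cyp2c55, which oxidises arachidonic and linoleic acid in mouse colon, was at 110, 85.6, 47.1, 14.1 and 9.43 CPM from W0 to W11. Each library was lower than the one before. The fold of W0 over W11 was 11.7, with a 95% interval of 9.83 to 14.0. This and all intervals below are exact Clopper-Pearson intervals that cover counting error only.

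The other Cyp2c genes were lowest at W8 or W11 and did not share one course. Cyp2c68 was at 97.8, 55.2, 86.0, 23.5 and 32.8 CPM from W0 to W11, and fell by 2.01 on the log2 scale at W8 and by 1.55 at W11. Cyp2c69 was at 13.1, 7.38, 4.37, 2.69 and 10.8 CPM. It fell at W5 and W8, and at W11 it was back at a log2 fold of -0.26. Cyp2c65 was at 4.06, 2.32, 7.26, 0.299 and 2.01 CPM, highest at W5 and lowest at W8. Cyp2c40 fell by 1.03 at W8 and by 1.22 at W11, from 8.06 CPM at W0 to 3.44 and 2.88 CPM. All 5 were thus at least 2-fold lower at W8, and 3 of them at W11, while 14 genes lie in the cluster from Cyp2c55 to Cyp2c70. Cyp2c55 shares 1.13% of its 50-base words with other genes. For Cyp2c40, Cyp2c69, Cyp2c68 and Cyp2c65 the shares are 72.1%, 54.8%, 43.3% and 20.6%. The split of reads among these copies, and so their separate courses, is uncertain.

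The promoters of these genes are shown because 4 of the 5 Cyp2c genes that passed the filter hold a motif that is rare elsewhere. Promoter windows were taken from RefSeq (GRCm38.p6), from 250 bases before to 50 after each start, with the first window used for each gene. They were found for 87 of the 116 genes. The nuclear receptor HNF4A is known to bind sequences like CAAAGTCCA, and this exact motif, on either strand, was in 129 of 27025 promoters (0.477%). It was in 4 of the 87, namely Cyp2c40, Cyp2c65, Cyp2c68 and Cyp2c69. These are paralogs in one cluster, and around the motif the windows of Cyp2c40 and Cyp2c69 were identical at 119 of 120 aligned bases, so the matches are not independent. Cyp2c65 was identical to the other 3 at between 45.0% and 48.1% of aligned bases. The Cyp2c55 window holds no CAAAGTCCA, and has TATAAA, the TATA box, at 29 bases before the start. TATAAA is also in the windows of Cyp2c65, at 162 bases before the start, and of Cyp2c40 and Cyp2c69, at 40 and 10 bases after it. Capitals mark CAAAGTCCA in the first 4 and TATAAA in Cyp2c55. Each stretch runs 5′ to 3′ on the gene's strand, from 140 bases before to 10 after the start, at chr19:39812805-39812954 (minus, Cyp2c40), chr19:39060866-39061015 (plus, Cyp2c65), chr19:39741092-39741241 (minus, Cyp2c68), chr19:39886760-39886909 (minus, Cyp2c69) and chr19:39006879-39007028 (plus, Cyp2c55).
Cyp2c40: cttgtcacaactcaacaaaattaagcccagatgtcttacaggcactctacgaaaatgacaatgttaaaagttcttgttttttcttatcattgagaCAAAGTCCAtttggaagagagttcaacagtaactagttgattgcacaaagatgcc
Cyp2c65: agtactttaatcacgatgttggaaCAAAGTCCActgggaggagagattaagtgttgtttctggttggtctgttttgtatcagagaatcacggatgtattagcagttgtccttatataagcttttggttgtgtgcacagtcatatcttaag
Cyp2c68: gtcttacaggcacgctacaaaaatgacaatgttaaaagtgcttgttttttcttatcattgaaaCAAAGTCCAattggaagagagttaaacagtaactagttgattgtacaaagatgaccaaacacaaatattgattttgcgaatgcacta
Cyp2c69: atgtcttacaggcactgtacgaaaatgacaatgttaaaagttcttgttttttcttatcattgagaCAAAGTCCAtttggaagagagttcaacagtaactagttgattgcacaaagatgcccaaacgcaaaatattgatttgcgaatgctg
Cyp2c55: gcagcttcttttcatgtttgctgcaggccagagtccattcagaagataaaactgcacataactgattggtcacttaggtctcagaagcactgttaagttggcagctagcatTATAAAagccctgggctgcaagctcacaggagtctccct

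Among the 40 genes that fell at both W8 and W11, 31 had a promoter window. TATAAA, on either strand, was in 32.3% of them, in 24.1% of the 87 and in 14.2% of all promoters. Their median number of CpG pairs was 3, against 4 in the 87 and 7 in all promoters. The core motif of the aryl hydrocarbon receptor, GCGTG, was in 12.9% of the 31, 25.3% of the 87 and 32.5% of all. For AGGTCA, a nuclear receptor motif, the shares were 12.9%, 12.6% and 16.0%, and for TTTATG, a motif of the CDX2 kind, they were 9.68%, 10.3% and 12.1%. TGACNNNGC, the core of the antioxidant response element, was in 3.23%, 13.8% and 12.5%. These motifs were chosen after the data had been seen, and a match is a description of the letters only.

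Of 7 Cyp2d genes that passed, 6 fell at both W8 and W11. The other, the pseudogene Cyp2d37-ps, had log2 folds of -0.89 and -0.90. The 6 lie in one cluster of 8 protein-coding genes, and the human relative CYP2D6 is known for the metabolism of many drugs. Cyp2d12 was at 29.3, 19.5, 9.37, 2.02 and 0.937 CPM from W0 to W11. It was lower in each library, and W0 was 31.3-fold W11 (interval 18.4 to 57.8). Cyp2d34, the Cyp2 gene with the highest mean CPM, was at 162, 93.9, 96.7, 75.1 and 65.4 CPM and fell by 1.10 at W8 and 1.29 at W11. Cyp2d9 went from 21.8 to 5.53 and 2.34 CPM, and Cyp2d22 from 32.7 to 9.41 and 7.23 CPM. Cyp2d9 shares 29.0% of its 50-base words with other genes, and Cyp2d12 shares 7.11%, so the split of reads among these copies is uncertain.

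Other P450 genes differed in when they fell. Cyp3a13, the one gene of its family to pass the filter and a relative of the human drug-metabolising CYP3A4, was at 73.4, 79.5, 87.4, 22.3 and 16.3 CPM. Its first 3 libraries were alike, and the fall at W8 (log2 -1.67) and W11 (-2.10) came after them. Cyp4f14, which hydroxylates leukotriene B4 and fat-soluble vitamins, had the same shape, at 95.1, 76.1, 77.2, 22.9 and 15.1 CPM. Cyp2s1, a P450 of epithelia, differed in that it was lower in each library, at 90.0, 57.3, 33.6, 21.8 and 16.9 CPM. Cyp2f2, known for its high level in lung club cells, went from 24.0 CPM at W0 to 12.7, 8.54, 4.48 and 6.76 CPM. Cyp2s1 and Cyp2f2 had both fallen by W5. Of the 9 Cyp4 genes, 2 fell at W8 and 3 at W11. Cyp4f40 was at 64.2 CPM at W0, 51.9 at W8 and 26.5 at W11, and Cyp4f16 and Cyp4f13 stayed within 2-fold of W0 throughout, between 41.9 and 60.5 and between 20.5 and 35.4 CPM.

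A few P450 genes took other courses. Cyp2j6, a fatty acid epoxygenase, was at 54.0, 44.7, 91.4, 91.9 and 65.7 CPM and did not pass 2-fold in either direction. Cyp4f18 was lowest at W2, at 2.66 CPM against 7.11 at W0 (log2 -1.15), and between 4.32 and 7.49 CPM later. Cyp2w1, described in human colon tumours and fetal gut, also fell at W2 alone, from 4.21 to 1.09 CPM, and stood at 6.05 CPM at W8. Cyp2b10, a target of the receptor CAR in mouse liver, had 1 count at W0 (0.0726 CPM) and none at W2, and was at 0.638, 1.72 and 4.42 CPM at W5, W8 and W11. Its ratio of W11 to W0 was 60.8, with an interval from 10.5 to 2439. Cyp1a1, the classic target of the aryl hydrocarbon receptor, was low throughout, at 1.89, 2.60, 1.72, 0.597 and 0.401 CPM, and fell at W11 (log2 -1.04). Cyp2w1, Cyp2b10, Cyp1a1 and the 3 lower Cyp2c genes lie outside the rule for named genes and were chosen after their values were seen.

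Cyp2e1, also chosen after its values were seen, rose at W5 and fell after it. It was at 5.23, 6.08, 19.9, 0.373 and 0.669 CPM from W0 to W11. The W5 library stands above the other 4, and W8 and W11 rest on 5 and 10 counts. W0 was 14.0-fold W8, with an interval of 5.73 to 44.4. Fat cells also express this gene. The fat cell gene Adipoq was at 3.56, 2.66, 9.42, 0 and 1.20 CPM in the same libraries, highest and lowest where Cyp2e1 was. Of 6 fat cell markers 3 passed the filter, 1 rising at W5 and 2 falling at W8 and at W11. The sums over the fat cell markers were 43.0, 49.3, 52.5, 25.5 and 58.3 CPM. Unlike Adipoq, the sum was highest at W11, where Cyp2e1 was at 0.669 CPM. The part of fat cells in the result was not tested.

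All 4 flavin monooxygenase genes that passed, enzymes that oxidise nitrogen and sulfur atoms, fell at W8 and at W11. Fmo2 was at 101, 89.3, 88.9, 45.7 and 13.9 CPM from W0 to W11. The first 3 libraries lay close together, and W0 was 7.24-fold W11 (interval 6.25 to 8.41). Fmo1 was at 26.7, 30.8, 15.1, 5.90 and 6.56 CPM, Fmo5 at 21.4, 14.1, 14.5, 7.47 and 5.55 CPM, and Fmo4 at 11.4, 8.13, 7.26, 4.18 and 2.07 CPM. The median log2 fold of the family was -1.33 at W8 and -1.94 at W11.

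Carboxylesterases hydrolyse esters and amides, including many prodrugs. Of 12 genes 7 fell and 1 rose at W8, and 8 fell at W11. Ces1f was at 72.6, 58.3, 26.9, 8.89 and 7.56 CPM, lower in each library, and W0 was 9.61-fold W11 (interval 7.90 to 11.8). In the same cluster Ces1d, a lipid hydrolase of fat and liver in mouse, was at 88.1, 49.5, 50.5, 14.1 and 17.1 CPM. Both were thus lowest at the last 2 time points.

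The Ces2 genes are the main intestinal carboxylesterases. Of 6 that passed the filter, 3 fell and 1 rose at W8, and 5 fell and none rose at W11. Ces2a was at 119, 101, 68.9, 28.8 and 32.0 CPM and Ces2c at 119, 74.3, 68.3, 35.0 and 19.5 CPM. Ces2c shares 42.2% of its 50-base words with other genes, mainly Ces2d-ps, so its counts are less certain. Ces2e was at 136, 106, 84.7, 75.7 and 64.5 CPM and passed 2-fold at W11 alone (log2 -1.06). Within the same cluster Ces2f, chosen after its values were seen, moved the other way: it was at 1.23, 1.91, 4.02, 4.93 and 1.61 CPM, and rose at W5 and W8.

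Aldehyde dehydrogenases, which oxidise aldehydes to acids, summed to 2660 CPM at W0 and 1426 CPM at W11. Per length, on the RPKM-like scale, their sum was 260 at W0 and 124 at W11, beside 196 and 156 for the Gst genes. Of 17 genes 4 fell and 2 rose at W8, and 5 fell and 1 rose at W11. Aldh2, the mitochondrial enzyme of acetaldehyde clearance, was at 1397, 1172, 581, 605 and 625 CPM. It fell at W5 (log2 -1.27), and the 3 later libraries lay close together. Aldh1b1, another mitochondrial acetaldehyde and retinaldehyde dehydrogenase, was instead lower in each library, at 526, 485, 279, 206 and 127 CPM. W0 was 4.15-fold W11 (interval 3.95 to 4.37).

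Among the Aldh1a genes, Aldh1a3 rose, Aldh1a1 and Aldh1a7 fell, and Aldh1a2 did not pass 2-fold. The enzymes of Aldh1a3, Aldh1a1 and Aldh1a2 oxidise retinaldehyde to retinoic acid. Aldh1a3 was at 22.7, 9.08, 63.1, 145 and 114 CPM from W0 to W11. It fell at W2 and rose at the 3 later times, and W8 was 6.37-fold W0 (interval 5.65 to 7.20). Aldh1a1, chosen after its values were seen, was at 43.2, 41.6, 39.9, 16.8 and 13.4 CPM. Aldh1a7, a close mouse paralog of Aldh1a1, was at 26.6, 18.4, 10.9, 4.71 and 3.95 CPM, lower in each library. Levels here are not per length and are compared within a gene only.

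Aldh genes of other roles gave further values. Aldh1l1, an enzyme of folate metabolism, was at 214, 123, 239, 241 and 193 CPM, and Aldh3a2, which oxidises fatty aldehydes, at 106, 75.2, 145, 117 and 66.3 CPM. Neither passed 2-fold. Aldh1l2, the mitochondrial folate enzyme, chosen after its values were seen, was at 0.581, 0.820, 2.85, 3.81 and 1.54 CPM and rose at W5 and W8.

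Of 3 alcohol dehydrogenase genes that passed, Adh1 fell and Adh5 did not pass 2-fold. Adh1, which oxidises ethanol and retinol, was at 331, 170, 292, 117 and 138 CPM, with W2 low and W5 near W0. Its log2 folds in the 4 later libraries were -0.96, -0.18, -1.49 and -1.26. Adh5, the formaldehyde-clearing enzyme, was at 93.8, 95.2, 88.2, 114 and 161 CPM. Adh6a, chosen after its values were seen, rose at W11, from 3 counts at W0 (0.218 CPM) to 4.48 CPM, a ratio of 20.6 with an interval of 6.75 to 102.

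**Figure D3:**
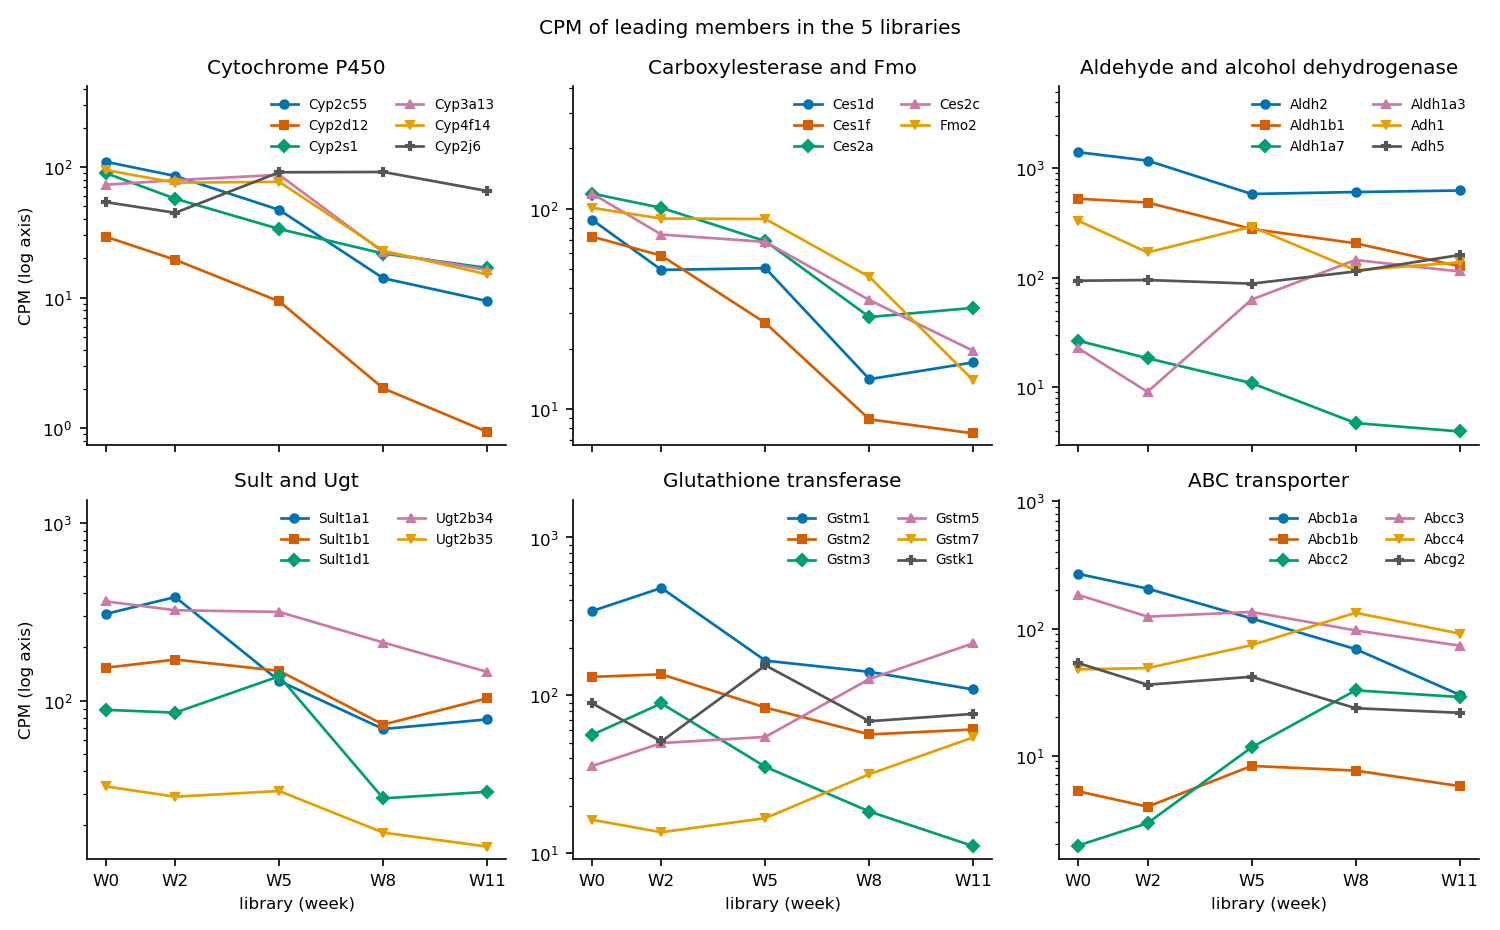
CPM on a log axis in the 5 libraries, placed by week, for leading genes of 6 groups. Each line is a gene and each point a single library. Cyp2d12 falls from 29.3 to 0.937 CPM while Cyp2j6 stays between 44.7 and 91.9 CPM, and Aldh1a3, Gstm5 and Abcc2 rise while Aldh2, Gstm1 and Abcb1a fall.

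Sulfotransferases attach a sulfate group to phenols, steroids and bile acids. Sult1a1, the main phenol sulfotransferase, was at 307, 382, 129, 69.2 and 78.4 CPM. W2 was the highest library, and the gene fell at W5 (log2 -1.25), W8 (-2.14) and W11 (-1.96). Sult1d1, which sulfates catecholamines in mouse, was at 88.7, 85.5, 137, 28.2 and 30.7 CPM, highest at W5 and over 2-fold lower at W8 and W11. Sult1b1, a thyroid hormone sulfotransferase, was at 153, 170, 147, 73.3 and 103 CPM and fell at W8 alone (log2 -1.05). Sult1c2 did not pass 2-fold, with 40.4 CPM at W0 and between 22.4 and 30.8 CPM later. Sult4a1, the brain-type member, was the gene that rose at W2, at 4.14, 16.1, 7.80, 2.91 and 2.54 CPM. W2 was 3.88-fold W0 (interval 2.89 to 5.28), and no other library passed 2-fold.

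The glucuronosyltransferases, which attach glucuronic acid, were measured through 2 genes. Ugt2b34 was at 361, 322, 315, 212 and 145 CPM and Ugt2b35 at 32.9, 28.8, 31.0, 18.1 and 15.1 CPM. Neither passed 2-fold before W11, where Ugt2b34 fell by 1.31 and Ugt2b35 by 1.07. The Ugt sum at W0 was 395 CPM, and Ugt2b34 held most of it.

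Glutathione transferases attach glutathione to reactive compounds, and the genes of the mu class diverged. They are neighbours in the order Gstm5, Gstm7, Gstm6, Gstm3, Gstm2, Gstm1 and Gstm4. Gstm1, the most abundant at W0, was at 342, 479, 166, 141 and 109 CPM, highest at W2 and lower in each library after it. Gstm3 had the same shape at 56.2, 89.0, 35.3, 18.4 and 11.1 CPM. Gstm5 went the other way, at 35.7, 49.9, 54.6, 127 and 214 CPM, higher in each library, and W11 was 6.01-fold W0 (interval 5.46 to 6.62).

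At W11 the 2 genes at the Gstm5 end of the row were higher and the next ones lower. Gstm7 was at 16.3, 13.6, 16.7, 31.7 and 54.3 CPM and rose at W11 (log2 1.68). Gstm2 was at 131, 136, 83.8, 56.6 and 60.9 CPM and fell by 1.20 at W8 and 1.09 at W11. Gstm6 and Gstm4, at the middle and the far end of the row, did not pass 2-fold, with log2 folds at W11 of -0.68 and -0.46. Gstm1 shares 23.1% of its 50-base words with other genes, mainly the pseudogene Gstm2-ps1, so part of its value is uncertain. Gstk1, the peroxisomal and mitochondrial kappa-class enzyme, was at 89.1, 51.1, 155, 68.6 and 76.4 CPM and passed 2-fold at no time.

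**Figure D4:**
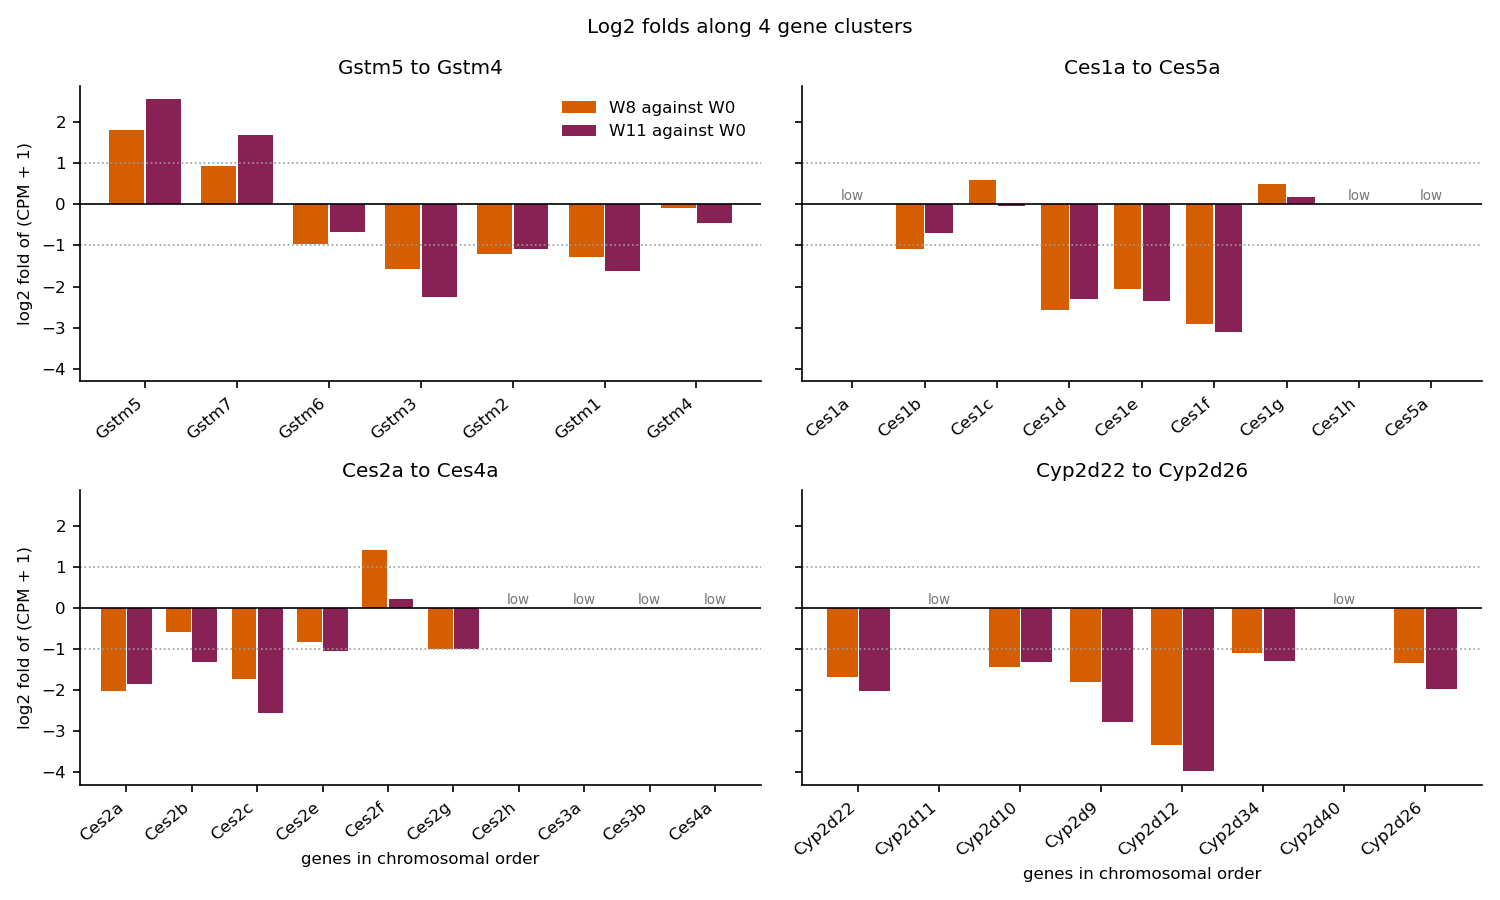
Log2 fold of (CPM + 1) at W8 and W11 against W0 for genes in chromosomal order (GENCODE M21) in 4 clusters. Dotted lines mark 2-fold and "low" marks a gene under the filter. The 6 Cyp2d genes with bars lie below -1, while Gstm5 (2.55 at W11) and Gstm1 (-1.63) lie on opposite sides within one cluster.

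The promoters of Gstm5 and Gstm1 are shown because these neighbours moved in opposite directions. Capitals mark GCGTG on either strand, where CACGC is its other-strand form, and TGACNNNGC. Gstm5 holds CACGC at 171 bases and at 38 bases before the start, and the latter lies within its TGACNNNGC match. Gstm1 holds GCGTG at 76 bases before the start and no TGACNNNGC. Both stretches run 5′ to 3′ on the gene's strand, from 250 bases before to 50 after the start, at chr3:107895604-107895903 (plus, Gstm5) and chr3:108017924-108018223 (minus, Gstm1). GCGTG was in 32.5% of all promoters and TGACNNNGC in 12.5%.
Gstm5: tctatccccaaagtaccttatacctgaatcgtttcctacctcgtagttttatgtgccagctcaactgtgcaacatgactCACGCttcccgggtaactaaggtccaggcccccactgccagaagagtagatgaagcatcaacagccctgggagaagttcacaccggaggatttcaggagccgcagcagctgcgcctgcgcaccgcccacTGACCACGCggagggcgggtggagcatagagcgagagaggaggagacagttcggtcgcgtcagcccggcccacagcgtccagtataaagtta
Gstm1: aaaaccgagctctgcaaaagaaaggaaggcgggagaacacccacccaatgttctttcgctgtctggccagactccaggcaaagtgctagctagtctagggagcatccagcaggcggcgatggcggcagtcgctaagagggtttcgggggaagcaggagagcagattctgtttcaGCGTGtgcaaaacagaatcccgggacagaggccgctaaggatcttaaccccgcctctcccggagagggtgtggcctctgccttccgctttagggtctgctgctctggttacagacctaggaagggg

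The ABC transporters divided by gene rather than by family. Abcb1a, which encodes P-glycoprotein, the multidrug exporter of the intestinal brush border, was at 269, 206, 120, 68.9 and 30.1 CPM. Each library was lower than the one before, and W0 was 8.94-fold W11 (interval 8.10 to 9.88). Its paralog Abcb1b was at 5.23, 3.96, 8.29, 7.62 and 5.75 CPM and did not pass 2-fold. Of the paralogs' 50-base words, 18.6% of those of Abcb1a and 19.6% of those of Abcb1b are shared with other genes. Abcb8, a mitochondrial transporter, stayed between 48.7 and 75.6 CPM, and Abcb9, a lysosomal peptide transporter, between 2.19 and 5.38 CPM.

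Abcg2, the breast cancer resistance protein, which exports drugs and urate at the apical membrane, was at 53.4, 36.1, 41.7, 23.6 and 21.7 CPM. It fell by 1.15 at W8 and 1.26 at W11. Abcg5 and Abcg8, which together export sterols, were at 12.6 and 4.86 CPM at W0 and at 12.9 and 5.75 CPM at W11, within 2-fold. Abcg1, a cholesterol exporter, was at 10.7 CPM at W0 and 18.3 at W11, also within 2-fold. Abcg3, a rodent paralog of Abcg2, rose at W5 alone, from 5.44 to 12.9 CPM.

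Among the multidrug resistance-associated proteins the directions were mixed. Abcc2, an apical exporter of glutathione and glucuronide conjugates, was at 1.96, 2.94, 11.6, 32.6 and 28.9 CPM. The 3 DSS libraries were all above the first 2, and W8 was 16.6-fold W0 (interval 11.3 to 25.5). Abcc4, an exporter of cyclic nucleotides and prostaglandins, was at 47.7, 48.8, 73.9, 133 and 91.2 CPM and rose at W8 (log2 1.46). Its log2 fold at W11 was 0.92, under the criterion.

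Abcc3, the basolateral exporter of glucuronides and bile acids, took the opposite course to Abcc2. It was at 184, 124, 135, 96.6 and 73.3 CPM and fell at W11 (log2 -1.32). Abcc10, an exporter of fat-soluble drugs, was at 22.8, 16.1, 13.5, 11.7 and 6.16 CPM, lower in each library, and fell at W11 (log2 -1.73). Abcc1, a broad exporter of conjugates, stayed between 37.6 and 84.6 CPM without passing 2-fold. Abcc9, the sulfonylurea receptor of potassium channels in smooth muscle, is not a drug exporter. It rose at W5 alone, at 26.4, 24.3, 56.0, 28.7 and 16.0 CPM. Of 7 smooth muscle markers all passed the filter and none rose or fell at W5. Their median log2 fold at W5 was 0.05, and their sum was 4874 CPM at W0 and 5224 CPM at W5. Acta2 among them was at 1014 CPM at W0 and 1737 at W5. Of 8 fibroblast markers 2 rose and none fell at W5, with a median log2 fold of 0.68. The part of a changed cell makeup in the Abcc9 value was not tested.

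Regulators of these genes were followed as a separate list of 15, of which 14 passed. None rose at any time, and the numbers that fell from W2 to W11 were 2, 1, 3 and 7. Over all genes, 4.23%, 1.87%, 3.85% and 16.9% fell in those libraries. Vdr, the vitamin D receptor, which in human cells induces CYP3A genes, was at 492, 276, 341, 148 and 66.8 CPM and fell by 1.73 at W8 and 2.86 at W11. Ppara, the fatty acid receptor that governs Cyp4a genes in liver, was at 14.0, 3.69, 5.25, 3.58 and 2.07 CPM, and fell at all 4 times. Ahrr, the repressor of the aryl hydrocarbon receptor, was at 6.02, 2.60, 4.07, 1.27 and 0.669 CPM. Hnf4a, an epithelial nuclear receptor, was at 853, 682, 699, 541 and 361 CPM, and Nr1i2, the pregnane X receptor, at 99.8, 54.7, 76.5, 52.2 and 45.2 CPM. Both fell at W11 alone, and both were chosen after their values were seen.

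Enzymes that support these reactions were followed as lists of their own. Of 8 electron donors and haem enzymes, 1 rose at W8 and 1 at W11, and none fell. Por, the reductase that feeds electrons to all microsomal P450 enzymes, was at 210, 114, 164, 189 and 131 CPM and did not pass 2-fold. Hmox1, which breaks down haem, was at 13.6 CPM at W0 and 32.3 at W8 (log2 1.18), and Cyb5a, cytochrome b5, was at 122 CPM at W0 and 257 at W11 (log2 1.06). Of 11 genes that supply conjugation cofactors, the numbers that fell were 1, 0, 1 and 3 in the 4 later libraries, and none rose. Over all genes, 4.23%, 1.87%, 3.85% and 16.9% fell in the same libraries. Ugdh, which makes the sugar donor of the Ugt enzymes, was at 226, 184, 142, 109 and 76.8 CPM and fell at W8 (log2 -1.05) and W11 (-1.55). Gclc, which makes the first peptide bond of glutathione, was at 109 CPM at W0 and 47.6 at W11. Gss, the glutathione synthetase, fell at W2 (log2 -1.51) and was at 46.0, 15.5, 24.2, 22.9 and 23.1 CPM.

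Other enzymes and carriers gave further single genes. Of 26 other xenobiotic enzymes 24 passed, and 6 fell and 1 rose at W8, and 5 fell and 1 rose at W11. Among all genes 3.85% fell at W8 and 16.9% at W11. Dhrs9, a retinol dehydrogenase, was at 4.72, 1.37, 42.4, 47.3 and 20.4 CPM, low at W0 and W2 and over 2-fold higher at the later times. Aldh1a3, whose substrate is the product of retinol dehydrogenases, was likewise lowest at W2 and higher at the later times. Maob, a monoamine oxidase, was at 57.6, 54.2, 41.9, 12.2 and 10.2 CPM, and Cbr3, a carbonyl reductase, at 73.8, 95.8, 19.2, 23.2 and 40.0 CPM. Of 12 uptake and bile acid carriers 10 passed, and 1 rose and 2 fell at both W8 and W11. For these carriers and the other xenobiotic enzymes, the lowered share at W11 was near that of all genes. Slco2a1, the prostaglandin uptake carrier, was at 79.9, 84.6, 86.7, 39.6 and 18.6 CPM. Fabp6, the ileal bile acid binding protein, was at 7.77, 29.2, 1.86, 3.29 and 5.95 CPM, and Slc10a2, the ileal bile acid uptake carrier, had 1 count at W0 and was at 1.57, 1.42, 5.53 and 2.07 CPM later. Of 8 absorptive markers of the small intestine, 1 passed the filter, Rbp2, at 21.4, 35.9, 4.12, 6.65 and 7.76 CPM. It made up nearly all of their sum, between 5.20 and 37.0 CPM, while the others stayed at or under 1.81 CPM and Fabp2 was at 0.

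The split by shared sequence bears on how far paralogs could exchange reads. Of the 87 genes with at most 10% of their 50-base words in another gene, 29 (33.3%) fell at W8 and 39 (44.8%) at W11. Of the 29 genes with more shared sequence, 15 (51.7%) and 12 (41.4%) fell. Many of these enzymes are also abundant in liver. The 8 liver markers, of which 4 passed the filter, summed to between 78.7 and 128 CPM. Fga, Fgb, Apoc3 and Serpina1a were at or near 0 in all libraries. Ttr, the transthyretin gene, was at 55.4, 82.4, 20.4, 25.5 and 56.5 CPM and made up the largest part of the sum at W0. Cps1, a urea cycle gene that the intestine also expresses, was at 26.3, 34.9, 31.1, 11.4 and 12.5 CPM and fell at W8 and W11. Tat, a tyrosine aminotransferase, was at 21.9, 6.97, 20.5, 30.8 and 11.1 CPM. Alb, the albumin gene, was at 3.77, 3.62, 6.23, 24.3 and 16.5 CPM and rose at W8 and W11. The part of these genes' source cells in the results was not tested.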

How the data were processed

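TRIzol was used for the RNA and a TruSeq kit for the libraries, per the labels' protocols. The submitters' processing notes list FastQC, HISAT2 2.2.1 and featureCounts, with both GRCm38 and GRCm39 as builds, so no gene coordinates are taken from the files. The sources used here do not give the annotation release, the strand setting or the handling of multi-mapped reads.

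In the table as deposited there is a pair of columns per library, and the headers appear exchanged. The columns headed TPM hold whole numbers with differing totals and were used as the authors' read counts. Those headed count were deposited by the authors with RPKM-like values, whose sums differ between libraries. The ratio of the pair, relative to W0, was the same within 1% in all 2620 genes over 5 RPKM in each library. The planned test for TPM values was replaced by CPM of the counts.

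Counts were divided by the library total to give CPM. Folds are differences of log2(CPM + 1). A mean of 1 CPM or more over the 5 libraries was required, which left 14720 of 52382, and 118 rows without a symbol can be no members. A gene was called at 2-fold. With 1 library per group no test across conditions was made. Ratios carry exact Clopper-Pearson 95% intervals, and all 132 calls of these genes over the 4 weeks had intervals that excluded 1. The calls were selected by fold on the same counts, so this adds no separate support to them. A count of 0 allows up to 3 counts, between 0.147 and 0.224 CPM. Intervals and floors cover counting error only. The calling was also run on simulated counts that held counting error only, so that run cannot show how far animals differ.

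The genes, lists, motifs and alternatives were chosen with earlier results of these data known. Named genes are, per family, up to 4 with the highest mean CPM and up to 3 with the largest fold, each with at least 5 CPM in some library, those past 2-fold in one direction at W5, W8 and W11, and up to 3 per pathway list. A gene that the rule names is not reported here. Genes outside this rule are marked in the text. Gsta4, Gstm4, Gstm6, Gsto1, Abcb6, Abcb10, Aldh1a2, Aldh3b3, Aldh4a1 and Cyp2d37-ps were also chosen after their values were seen. Shared 50-base words, overlaps and gene order came from GENCODE M21, where 268 of the 269 genes matched, and promoters from RefSeq. Alternatives were pseudocounts of 0.1 and 5, no filter or one at 5 CPM, median-of-ratios scaling, trimmed totals, the deposited RPKM-like values and other baselines. Removal of GC decile medians, removal of the median of all genes and the restriction to genes with little shared sequence were chosen later, with the data seen. Python 3.11.15 was used, with matplotlib 3.10.9, scipy 1.17.1, pandas 2.3.3 and numpy 2.4.6.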

Additional observations from a re-analysis of the deposited data

Results flagged for a closer look

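Only 2 of the 116 genes passed 2-fold in both directions, and each is given because a pair of weeks moved opposite ways against the same W0 library. Aldh1a3 had a log2 fold of -1.23 at W2 and 2.62 at W8, on 133 counts at W2 and 1936 at W8. Cyp2e1 had a log2 fold of 1.75 at W5 and -2.18 at W8, on 405 counts at W5 and 5 at W8. Each week is 1 library, and the difference between weeks was not tested.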

How the results depend on the processing

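Counts of genes that rose or fell kept within 1.5 times of the reported ones at W11 under every alternative, between 4 and 9 higher and between 35 and 52 lower. The count of 44 lower at W8 lay between 30 and 51, except that it was 29 among the 87 genes with little shared sequence. At W2 the 1 higher gene became 2 with a pseudocount of 0.1, no filter, median-of-ratios scaling, trimmed totals or the median of all genes removed, and 3 with GC medians removed. The 3 lower at W2 became 6 with a pseudocount of 0.1 and 0 with a pseudocount of 5 or the deposited length-scaled values. At W5 the 7 higher became 3 with a pseudocount of 5, 2 with length-scaled values and 11 against W2, and the 13 lower became 8 with length-scaled values and 6 against W2. At W8 the 7 higher became 4 with a pseudocount of 5, a mean of at least 5 CPM or length-scaled values, and 14 against W2. Against W2, Ppara at W5 turned to 0.41 and Slc10a2 at W5 to -0.09. The offset of 1 weighs more on length-scaled values, which are smaller, and the cause of the other changes was not tested. Of 122 calls of named genes by week, 35 were lost with length-scaled values, 18 with a pseudocount of 5, 7 with median-of-ratios scaling, 8 with GC medians removed and none with trimmed totals. Of 114 such calls at W5, W8 and W11, 32 were lost and 18 gained against W2, and 15 were lost and 9 gained against the mean of W0 and W2. Median-of-ratios scaling moved the median of all genes by -0.13 (W5), -0.11 (W8) and 0.20 (W11). Against W2 the median fold of these genes at W5 was 0.02 in place of -0.17, and at W8 and W11 it stayed negative under all alternatives, nearest to 0 without a filter, at -0.20. No paired analysis was possible because each time point has 1 library, and for the same reason no replicate could be left out. Genes with few counts, such as Cyp2b10 with 1 at W0, have wide intervals.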
